A study of Mus musculus with 6 samples.

Results

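The 6 genes described here encode the mouse proteins that receive or trap hedgehog ligand at the cell surface and pass the signal inward: Ptch1, Hhip, Smo, Boc, Cdon and Gas1. They were chosen by name from 37310 genes counted in every library, and all 6 were found and passed the filter on low counts. Polyadenylated RNA was sequenced from tailbuds of embryos at embryonic day 9.5, in 3 libraries of WT/WT embryos (WT) and 3 of embryos homozygous for Danforth's short tail (Sd/Sd, here Sd). Both groups came from an outbred CD-1 background, and where tissue was short the tailbuds of a pair of embryos were combined, in libraries not named in the sources used here. Danforth's short tail is caused by a retrotransposon that landed upstream of Ptf1a, a transcription factor gene, and it reduces the tail and the notochord. No other allele or treatment is named for either group. The study's title puts hedgehog signalling at the centre of the comparison, and the values below show how the receiving side of that pathway stood in WT and Sd tailbuds.

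Hedgehog proteins spread from the notochord, the floor plate of the neural tube and the gut endoderm. Without ligand the receptor Ptch1 holds Smo inactive. Ligand on Ptch1 frees Smo, a membrane protein that then acts through the primary cilium on the Gli transcription factors. Boc, Cdon and Gas1 bind ligand together with Ptch1 and help the response, whereas Hhip binds ligand at the membrane and takes it out of play. In many tissues an active pathway raises transcription of Ptch1 and Hhip, which damps the signal, and lowers that of Boc, Cdon and Gas1.

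Total counts ran from 41788978 to 62296689 per library. The mutation's neighbour Ptf1a, which is outside the receptor set, had 8 counts over the 3 WT libraries and 2671 over the 3 Sd libraries, so no library went against its label. Genes of the tailbud itself were present throughout: T, the Brachyury gene of tailbud mesoderm and notochord, stood at 77.2 CPM (the count scaled to library size) or more in each library. In the fit across all 15471 genes tested, 6 were higher and 3 lower in Sd at an adjusted p under 0.05. In summed CPM of marker lists for somites, neural tube and neural crest, Sd replicates 2 and 3 stood at opposite ends. This bears on most of the values that follow.

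None of the 6 receptor genes passed the test between Sd and WT. Over all genes tested 0.0582% did, 0.0388% higher and 0.0194% lower in Sd, so a count of 0 of 6 does not stand apart from the background. Their log2 fold changes ran from -0.34 for Ptch1 to 0.15 for Boc, with a median of 0.03 beside 0.00 over all genes tested. Of the 6, 5 were positive, as were 7718 of all 15471 genes tested. By edgeR's quasi-likelihood test each of the 6 had an adjusted p = 1.00 (Benjamini-Hochberg over all genes tested), and 0 of 6 had an unadjusted p under 0.05, against 2.90% of all genes. DESeq2 and limma-voom also called 0 of 6. The unadjusted p of Ptch1 was 0.0551 by edgeR, 0.0159 by DESeq2 and 0.0291 by limma-voom. Groups overlapped for all 6 in CPM, while 7.68% of all genes had groups that did not overlap, 4.42% with Sd lower and 3.26% with Sd higher.

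**Figure D1:**
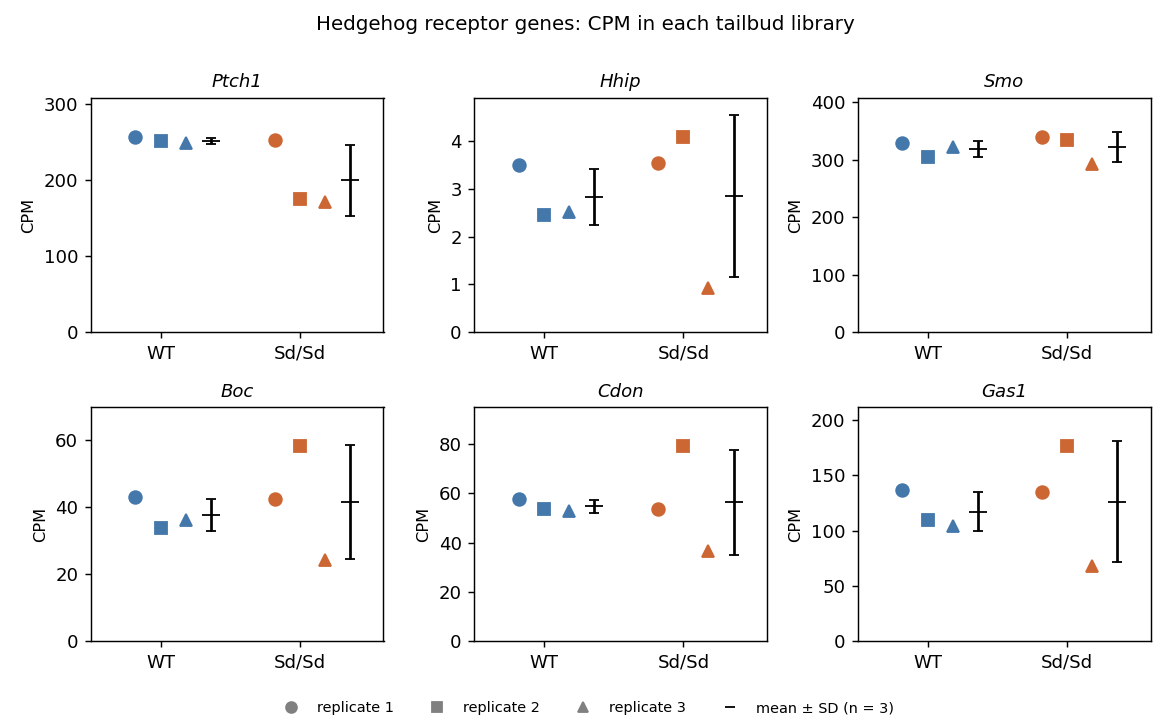
CPM of each receptor gene (vertical axis, from 0) in the 3 WT (blue) and 3 Sd (orange) libraries, with symbols for replicates 1 to 3 and black bars for mean ± SD (n = 3). Ptch1 is at 248 to 256 CPM in WT and at 253, 175 and 170 CPM in Sd; Hhip, Boc, Cdon and Gas1 have their highest value in Sd replicate 2 and their lowest in Sd replicate 3.

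Ptch1 (ENSMUSG00000021466.5, chromosome 13), the ligand receptor and the gene that the pathway itself induces, stood apart from the other 5 genes in where its low values fell. It measured 256, 250 and 248 CPM in WT replicates 1 to 3 and 253, 175 and 170 CPM in Sd replicates 1 to 3. The first Sd library lay inside the WT range, and the other 2 lay about equally far below it. The mean was 251 ± 4.01 CPM for WT and 199 ± 46.3 CPM for Sd (SD, n = 3), a fitted change of -20.8% (log2 fold change -0.34, SE 0.15, 95% interval -0.68 to 0.01; edgeR adjusted p = 1.00). The interval reaches from a fold of 0.623 to one of 1.01. Without Sd replicate 1 the log2 fold change was -0.54 (SE 0.06, edgeR adjusted p = 0.103), and without Sd replicate 2 or 3 it was -0.25 or -0.24.

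The spread of Ptch1 itself differed between the groups. In WT its log2 CPM had an SD of 0.023, and only 4.14% of all genes tested had a smaller one; in Sd its SD was 0.318, and 72.1% of genes had a smaller one. All 6 receptor genes had a larger SD in Sd than in WT, as had 67.8% of all genes. Having Sd replicates 2 and 3 below every other library, as Ptch1 did, was true of 5.14% of all genes, a pattern picked after its values were seen. The mean of the notochord markers, 8 of 8 tested, was also lowest in Sd replicates 2 and 3: in log2 CPM centred over the 6 libraries it was 0.60 to 0.63 in WT and 0.07, -0.71 and -1.21 in Sd replicates 1 to 3. Single markers did not all have this order: T was highest in Sd replicate 3, at 203 CPM, Chrd was lowest in Sd replicate 1, at 3.20 CPM, and Foxj1 in Sd replicate 2 lay inside the WT range. Summed CPM of the list had another order too, at 201 to 242 in WT and 182, 105 and 222 in Sd, and no marker of the list was at 0 in any library. But Cer1 had 1 count in Sd replicate 3, at 0.0204 CPM, against 7.52 CPM or more in every other library. Noto stood at 0.144 CPM in Sd replicate 2, against 2.23 and 1.71 CPM in Sd replicates 1 and 3 and 8.04 to 11.1 CPM in WT. The value of Cer1 pulls down the mean of the list in Sd replicate 3, and that of Noto does so in Sd replicate 2. The floor plate and hindgut endoderm, the other ligand sources named above, did not have the order of the notochord mean. For floor plate markers (8 of 9 tested) the same mean was 0.26 to 0.69 in WT and -0.035, -0.020 and -1.21 in Sd replicates 1 to 3. For hindgut endoderm markers (13 of 14 tested) it was 0.24 to 0.41 in WT and -0.27, -0.44 and -0.21 in Sd. The part of any of these tissues in the Ptch1 values was not tested. In RNA from whole tailbuds, fewer cells of a type and less RNA per cell cannot be told apart.

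Hhip (ENSMUSG00000064325.3, chromosome 8), the ligand trap, is like Ptch1 a gene that the pathway induces, but its values did not follow those of Ptch1. It was the scarcest of the 6, with 45 to 256 counts per library. CPM was 3.51, 2.46 and 2.51 in WT and 3.54, 4.09 and 0.918 in Sd replicates 1 to 3. The Sd libraries thus held both the highest and the lowest value of the 6. Counting error does not span that gap: the 95% exact Poisson interval, which covers counting error only, was 3.60 to 4.62 CPM for Sd replicate 2 and 0.670 to 1.23 CPM for Sd replicate 3. Group means were 2.83 ± 0.591 and 2.85 ± 1.69 CPM (SD, n = 3; log2 fold change 0.01, SE 0.50, 95% interval -1.14 to 1.17; edgeR adjusted p = 1.00). With this spread a fold anywhere from 0.452 to 2.25 lies inside the interval, and the sign of the change turned in 8 of the 15 alternatives run.

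Smo (ENSMUSG00000001761.6, chromosome 6), the transducer that Ptch1 holds in check, had the smallest spread within Sd of the 6 genes. It stood at 329, 304 and 322 CPM in WT and at 339, 335 and 292 CPM in Sd. The largest and the smallest value both belonged to Sd, and they differed by a ratio of only 1.16. Means were 318 ± 13.2 and 322 ± 25.8 CPM (SD, n = 3; log2 fold change 0.02, SE 0.07, 95% interval -0.15 to 0.18; edgeR adjusted p = 1.00). The interval for Smo covers folds of 0.901 to 1.14 and is the narrowest of the 6.

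Smo varied so little that it was taken as a reference for Ptch1 inside each library, a choice made after its values were seen. Such a difference needs no scaling between libraries, but Smo was itself lowest in Sd replicate 3. The difference in log2 CPM, Ptch1 minus Smo, was -0.36, -0.28 and -0.38 in WT and -0.42, -0.94 and -0.78 in Sd replicates 1 to 3. The groups did not overlap, but Sd replicate 1 lay just under the lowest WT library. Measured against Smo in this way, 5.91% of all genes had groups that did not overlap.

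Gas1 (ENSMUSG00000052957.6, chromosome 13), a membrane-anchored co-receptor, had 137, 110 and 104 CPM in WT and 135, 176 and 67.9 CPM in Sd replicates 1 to 3. Sd replicate 1 was near the top of the WT range, with the other 2 Sd libraries beyond it on either side. Means were 117 ± 17.6 and 126 ± 54.5 CPM (SD, n = 3; log2 fold change 0.11, SE 0.37, 95% interval -0.86 to 1.08; edgeR adjusted p = 1.00).

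Boc (ENSMUSG00000022687.5, chromosome 16), an immunoglobulin-family co-receptor, followed the same order at the extremes. It measured 43.0, 33.7 and 36.3 CPM in WT and 42.5, 58.2 and 24.2 CPM in Sd. Its means were 37.7 ± 4.76 and 41.6 ± 17.0 CPM (SD, n = 3; log2 fold change 0.15, SE 0.32, 95% interval -0.67 to 0.96; edgeR adjusted p = 1.00).

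Cdon (ENSMUSG00000038119.7, chromosome 9), the closest relative of Boc, kept a tight WT range and a wide Sd one. It measured 57.6, 53.7 and 52.8 CPM in WT and 53.5, 79.0 and 36.5 CPM in Sd. Its means were 54.7 ± 2.56 and 56.3 ± 21.4 CPM (SD, n = 3; log2 fold change 0.04, SE 0.27, 95% interval -0.64 to 0.72; edgeR adjusted p = 1.00). In Sd the ratio of the highest to the lowest library was 2.17 for Cdon, 2.41 for Boc and 2.59 for Gas1, against 1.09, 1.27 and 1.32 in WT.

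The direction of all 3 co-receptors depended on which of these Sd libraries was counted. Without Sd replicate 2, the log2 fold changes of Boc, Cdon and Gas1 turned to -0.18, -0.28 and -0.21. Without Sd replicate 3 they were 0.42 (SE 0.15), 0.28 (SE 0.16) and 0.41 (SE 0.16), with edgeR adjusted p = 0.860, 0.990 and 0.915, and Hhip stood at 0.43 (SE 0.24, adjusted p = 0.981). Ptch1 kept a negative value in both of these fits. Neither fit called any of the 6 genes.

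**Figure D2:**
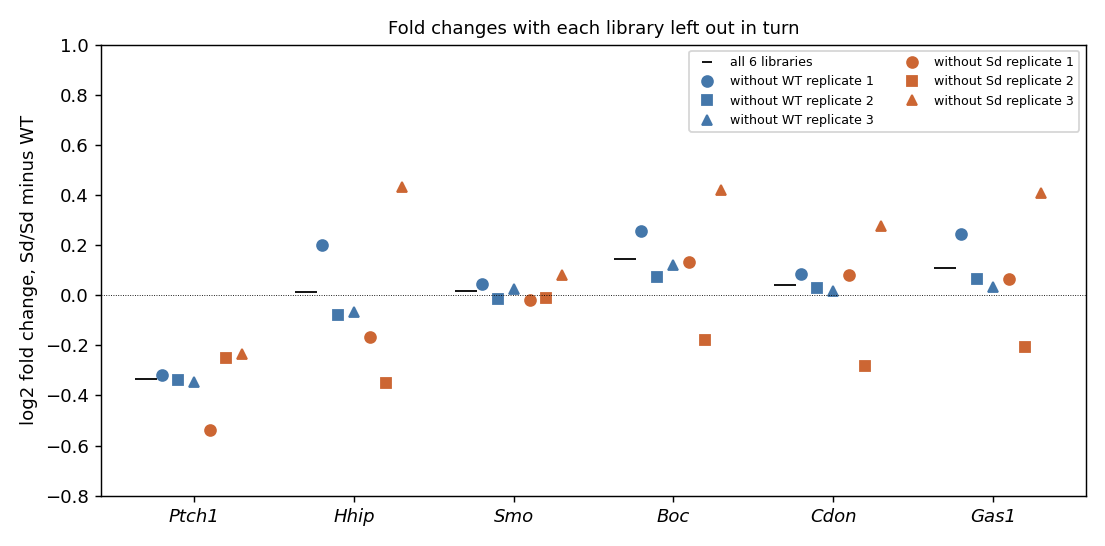
Log2 fold change of each receptor gene, Sd minus WT (vertical axis), with all 6 libraries (black dash) and with each library left out in turn (blue for WT, orange for Sd). Leaving out Sd replicate 2 (orange square) puts Hhip, Boc, Cdon and Gas1 below 0 and leaving out Sd replicate 3 (orange triangle) lifts them to between 0.28 and 0.43, while Ptch1 stays between -0.54 and -0.24.

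Hhip, Boc, Cdon and Gas1 shared one order at the extremes, with Sd replicate 2 highest and Sd replicate 3 lowest of the 6 libraries. That order, picked after it was seen, held for 4 of the 6 receptor genes and for 8.23% of all genes tested. Relative to their own means over the 6 libraries, the 4 genes stood 0.54 to 0.66 higher on the log2 scale in Sd replicate 2, where Ptch1 stood at -0.35. In Sd replicate 3, Boc, Cdon and Gas1 stood at -0.66, -0.57 and -0.78, Hhip at -1.45 and Ptch1 at -0.38. Against the mean of Boc, Cdon and Gas1, Ptch1 departed in Sd replicate 2 alone: its log2 CPM exceeded that mean by 1.87 to 2.10 in WT, by 1.91 and 2.12 in Sd replicates 1 and 3, and by 0.90 in Sd replicate 2. Against Hhip it departed in both libraries and in opposite directions, by 6.17 to 6.65 in WT and by 6.14, 5.40 and 7.48 in Sd replicates 1 to 3.

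Lists of somite, neural tube and neural crest markers had the same order in summed CPM, but not every single marker did. In the neural crest list Tfap2a and Snai2 were lowest in Sd replicate 1, and Ets1 was lowest in WT replicate 3. Foxc1 and Foxc2 were highest in Sd replicate 1 and Neurog2 in WT replicate 1, and Pax7 was lowest in WT replicate 1. Summed CPM of the somite and sclerotome list (13 of 14 tested) was 357 to 479 in WT and 559, 649 and 142 in Sd replicates 1 to 3. For the neural tube list (9 of 12 tested) it was 116 to 149 in WT and 143, 185 and 68.9 in Sd, and for neural crest (6 of 6 tested) 136 to 168 in WT and 150, 190 and 131 in Sd. Presomitic and tailbud progenitor markers (14 of 15 tested) ran the other way, at 892 to 1158 in WT and 1045, 619 and 1262 in Sd. Of all these markers Pax1, a sclerotome gene, and Dbx2, a neural tube gene, were at 0 in at least 1 library. By these sums Sd replicate 2 was rich and Sd replicate 3 poor in somite and neural tube transcripts. For neural crest the sum in Sd replicate 3 lay only just below WT, and the mean centred log2 CPM there was -1.58. Abundant genes weigh most in such sums. Ets1, Snai2 and Tfap2a stood at 85.1, 27.2 and 13.5 CPM in Sd replicate 3, and Meox1 at 265 and 12.8 CPM in Sd replicates 2 and 3. The order of these sums did not hold for all differentiating tissues. Lateral plate and hindlimb mesoderm markers summed to 639 to 721 in WT and to 638, 617 and 757 in Sd replicates 1 to 3. Endothelium markers summed to 501 to 563 in WT and to 430, 427 and 587 in Sd.

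A fit with the somite list's score as a covariate is a description, since the score comes from the same libraries and these 4 genes were seen to share its order. The SE of the log2 fold change went from 0.32 to 0.09 for Boc, from 0.37 to 0.10 for Gas1, from 0.27 to 0.12 for Cdon and from 0.50 to 0.21 for Hhip. A ratio of the new to the old SE as low as theirs was found for 0.226%, 0.175%, 0.911% and 0.898% of all genes tested, in that order, and the median ratio over all genes was 0.940. For Ptch1 the SE stayed at 0.15, a ratio reached or undercut by 86.0% of genes, and the log2 fold change at -0.33. In this fit the log2 fold changes were 0.13 for Boc, 0.08 for Gas1, 0.03 for Cdon, -0.12 for Hhip and 0.03 for Smo, and none of the 6 genes was called (edgeR adjusted p = 1.00 for each).

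**Figure D3:**
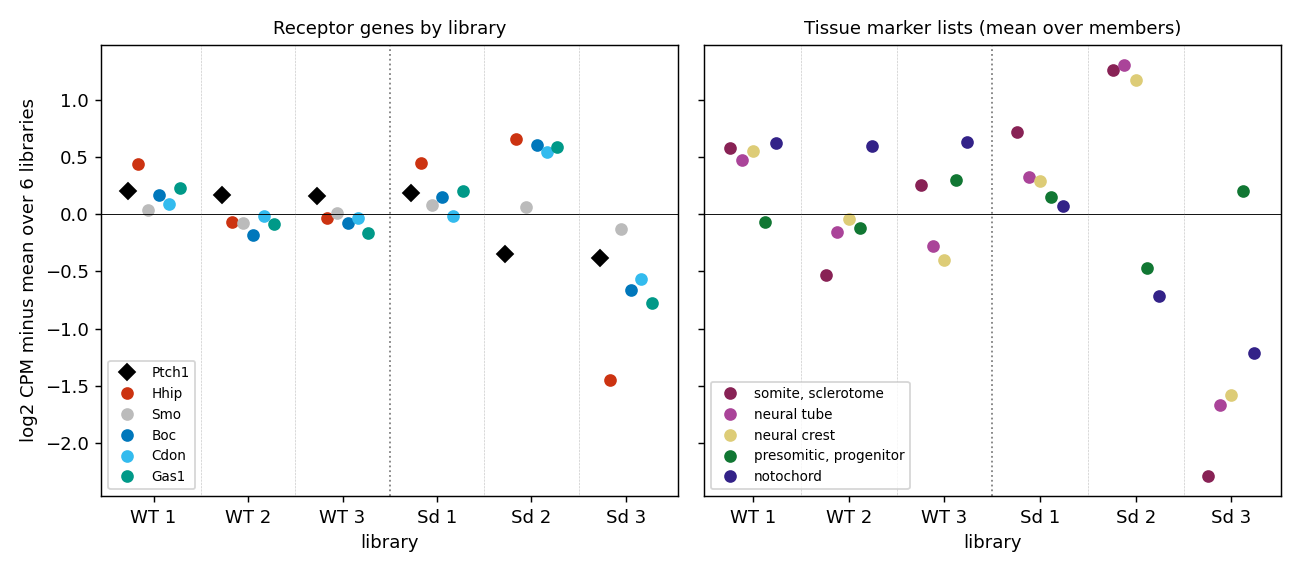
Log2 CPM minus its mean over the 6 libraries (vertical axis) for each receptor gene (left) and averaged over the members of 5 tissue marker lists (right), by library (horizontal axis). Ptch1 (black diamonds) is low in Sd replicates 2 and 3, whereas Hhip, Boc, Cdon and Gas1 are high in Sd replicate 2 and low in Sd replicate 3, in the order of the somite, neural tube and neural crest lists.

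The proportions among the co-receptors varied less than their levels. Per kilobase of merged exons, Gas1 made up 70.1% to 73.0% of the sum of Gas1, Cdon and Boc in WT and 73.4%, 71.8% and 69.3% in Sd replicates 1 to 3. Boc held 14.7% to 16.3% in WT and 15.4% to 16.4% in Sd. The share of Cdon was 11.8% to 13.7% in WT and 11.2%, 12.4% and 14.3% in Sd replicates 1 to 3. Relative to its own size it varied most, while in percentage points that of Gas1 did.

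Level per length ordered the genes as Smo, Gas1, Ptch1, Boc, Cdon and Hhip in WT. Smo stood at 56.6 ± 2.35 CPM per kilobase, Gas1 at 39.5 ± 5.95 and Ptch1 at 17.7 ± 0.283 (SD, n = 3). Boc at 8.46 ± 1.07 and Cdon at 7.09 ± 0.332 CPM per kilobase were close neighbours, with a WT range of 7.58 to 9.65 for Boc just above that of 6.84 to 7.47 for Cdon, and Sd ranges that overlapped. Hhip was far below the rest at 0.311 ± 0.0651 CPM per kilobase. In Sd the same order held for the means, but Gas1 (22.9 to 59.4) and Smo (52.0 to 60.3) overlapped. Exon lengths came from GENCODE M21 on GRCm38, while the submitters' notes name the build mm9 and their annotation is not known. With the longest transcript in place of merged exons Ptch1 rose to 24.2 and Smo to 84.3 CPM per kilobase. The order of the 6 genes in WT was unchanged. The overlap of Gas1 and Smo in Sd was then gone, with Smo at 77.4 to 89.7 CPM per kilobase. Ptch1 per kilobase was 0.305 to 0.327 of Smo in WT and 0.295, 0.206 and 0.231 of it in Sd replicates 1 to 3.

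**Figure D4:**
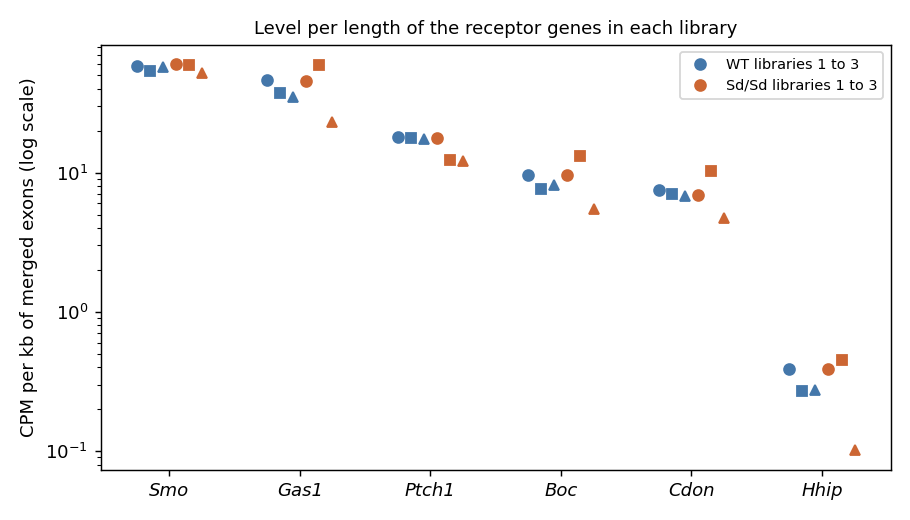
CPM per kilobase of merged exons (vertical axis, log scale) for each receptor gene in the 3 WT (blue) and 3 Sd (orange) libraries, with circles, squares and triangles for replicates 1 to 3. Smo is at 52.0 to 60.3 and Hhip at 0.101 to 0.450, and Gas1 in Sd replicate 2, at 59.4, reaches the level of Smo with this length, but not with the longest transcript, where Smo is at 88.6.

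Gene starts of Hhip and Gas1 are shown because both moved with the somite and neural markers although they sit on opposite sides of the pathway, 1 induced by it and 1 lowered by it. The 250 bases before each start come from RefSeq on GRCm38.p6, 5′ to 3′ in the direction of the gene, on the minus strand in both cases, at chr8:80058009-80058258 for Hhip and chr13:60177536-60177785 for Gas1. Capitals mark the stretch closest to the Gli site TGGGTGGTC on either strand, or the first of equally close ones, of which Gas1 has 5 and Hhip 1.
Hhip: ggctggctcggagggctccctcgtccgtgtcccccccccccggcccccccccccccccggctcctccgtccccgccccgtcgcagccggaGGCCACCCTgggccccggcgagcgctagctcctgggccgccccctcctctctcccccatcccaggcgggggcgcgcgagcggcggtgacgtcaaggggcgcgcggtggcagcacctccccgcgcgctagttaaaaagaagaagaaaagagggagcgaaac
Gas1: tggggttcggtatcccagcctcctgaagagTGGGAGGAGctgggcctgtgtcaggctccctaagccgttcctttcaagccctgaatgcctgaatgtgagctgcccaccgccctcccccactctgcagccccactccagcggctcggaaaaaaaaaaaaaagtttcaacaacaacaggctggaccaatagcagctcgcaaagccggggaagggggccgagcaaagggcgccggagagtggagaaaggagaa
The stretch in Hhip, read on the opposite strand, has 7 of the motif's 9 letters and that in Gas1 has 6. Windows of 300 bases were found for 5 of the 6 genes (Hhip, Gas1, Ptch1, Smo and Cdon), and 0 of the 5 held the full motif, as against 0.253% of 32851 such windows. A match of at least 7 letters occurred in 58.3% of all windows and of at least 6 in 99.4%, so these letters do not mark the receptor genes out.

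Genes whose log2 CPM followed each member most closely over the 6 libraries were picked from about 10530 genes with a mean of at least 5 CPM. For Gas1 the closest was Scube2 (Pearson r = 0.999), which encodes a secreted protein that helps release hedgehog ligand, followed by Wscd1 (r = 0.998) and Maea (r = 0.997). Scube2 stood at 11.5, 6.09 and 5.61 CPM in WT and at 10.3, 22.1 and 1.61 CPM in Sd replicates 1 to 3, the order of Gas1 with a wider swing. For Hhip the closest were Hexim1 (r = 0.999), Arg1 (r = 0.997) and Fzd2 (r = 0.995), a Wnt receptor gene. Boc was closest to Pgm5 (r = 0.995), Eri3 (r = 0.992) and Wdtc1 (r = 0.991), and Cdon to Errfi1 (r = 0.995), Asf1b (r = 0.995) and Apba2 (r = 0.992). Smo was closest to Sbf1 (r = 0.997), Taf6 (r = 0.994) and Rptor (r = 0.994).

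Few genes resembled Ptch1. A correlation above 0.9 with Ptch1 was found for 55 genes, 0.522% of those eligible, against 302 to 557 genes for the other 5 members. Closest were Mxi1 (r = 0.995) and Smim15 (r = 0.989), whose range was far narrower, with Mxi1 at 39.1 to 39.7 CPM in WT and at 39.7, 34.5 and 34.1 CPM in Sd replicates 1 to 3. The third was an identifier without a symbol (ENSMUSG00000069367.2, r = 0.975), at 34.2 to 82.6 CPM in WT and at 29.6, 0.271 and 0.551 CPM in Sd. These correlations describe 6 points that share their libraries and carry no test.

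Around the receptors, the ligand genes were the part of the pathway list that passed. Shh fell from 15.5, 13.4 and 16.5 CPM in WT to 6.74, 5.09 and 4.30 CPM in Sd, and Ihh from 3.11, 2.59 and 3.29 CPM to 0.776, 0.751 and 0.836 CPM, each with edgeR adjusted p = 0.0438 and without overlap. Both calls were lost when any 1 of the 6 libraries was left out, when the adjusted p was 0.0615 to 0.263 for Shh and 0.0933 to 0.317 for Ihh. They were also lost with limma-voom (adjusted p = 0.0860 and 0.104) and without edgeR's robust option (0.0785 and 0.0566). DESeq2 kept both (adjusted p = 2.6e-11 for Shh and 7.7e-07 for Ihh). So did edgeR with RLE or total-count scaling, other filters, the replicate block or the somite covariate. The edgeR log2 fold change was -1.49 (SE 0.18) for Shh and -1.93 (SE 0.24) for Ihh. With 1 library left out it was -1.68 to -1.36 for Shh and -2.02 to -1.85 for Ihh. Dhh, the third ligand gene, was at 0.645, 1.17 and 0.947 CPM in WT and at 0.631, 0.910 and 0.836 CPM in Sd (edgeR log2 fold change -0.21, SE 0.34, adjusted p = 1.00). Ptch1 minus Shh, in log2 CPM within a library, was 3.91 to 4.22 in WT and 5.09 to 5.29 in Sd, but a difference from Shh separated the groups for 90.7% of all genes, since Shh itself fell.

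Among the Gli genes, which encode the transcription factors at the end of the pathway, 0 of 3 passed. The induced Gli1 stood at 113, 79.8 and 77.1 CPM in WT and at 82.4, 80.9 and 38.9 CPM in Sd (edgeR log2 fold change -0.41, SE 0.34, adjusted p = 1.00). Gli2 had a log2 fold change of 0.10 (SE 0.15). Gli3, whose product acts mostly as a repressor, had 116, 117 and 135 CPM in WT and 148, 132 and 146 CPM in Sd (log2 fold change 0.21, SE 0.08, unadjusted p = 0.0289, edgeR adjusted p = 1.00). In the fit with the somite score, the SE of Gli1 went from 0.34 to 0.12 at a log2 fold change of -0.42 (edgeR adjusted p = 0.733).

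**Figure D5:**
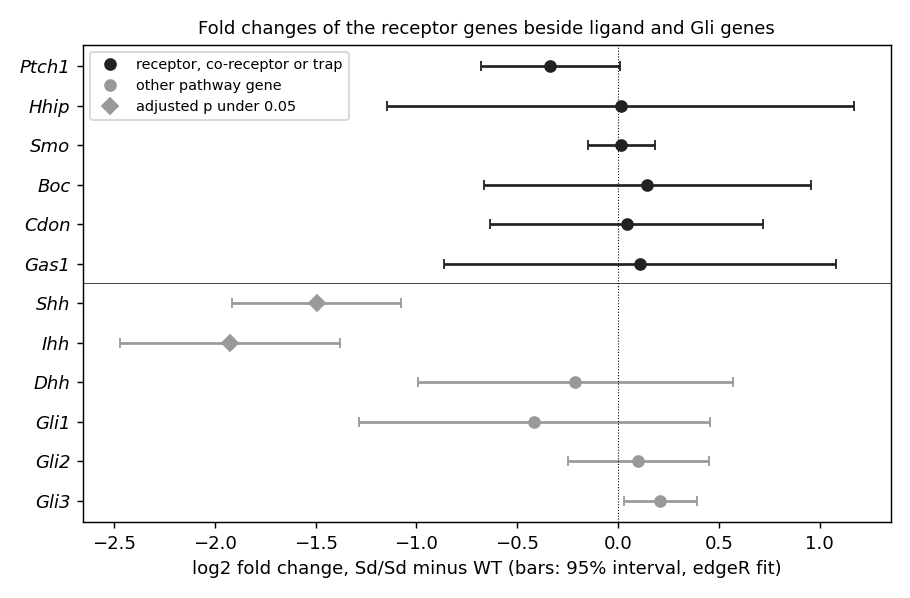
Log2 fold change, Sd minus WT (horizontal axis), with its 95% interval from the edgeR fit, for the 6 receptor genes (black) and for ligand and Gli genes (grey); diamonds mark an adjusted p under 0.05. Only Shh and Ihh are marked, and among the receptor genes Ptch1 lies farthest below 0, with an interval of -0.68 to 0.01.

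The remaining pathway genes did not pass either. Of 5 tested genes for ligand release and lipid attachment 0 passed (median log2 fold change 0.04); the genes with the smallest p of the list (unadjusted p = 0.450 and 0.585) stood at log2 fold changes of 0.08 (SE 0.10) for Scube3 and 0.55 (SE 0.94) for Scube2. Of 8 tested genes listed for other ligand-binding or modulating surface proteins, glypicans among them, 0 passed (median -0.03). Kirrel3 stood at -0.68 (SE 0.51), with only 22 to 108 counts per library. It was listed by name, and these data do not show that its protein binds hedgehog ligand. Gpc3 and Gpc4, on chromosome X, are listed at 0 in every library, as are all identifiers of that chromosome. Of 24 tested genes listed between Smo and Gli 0 passed (median 0.02, range -0.56 to 0.13), with Kif7, a ciliary kinesin, at 0.13 (SE 0.09). Atxn1 alone set the lower end, at -0.56 (SE 0.35) and 20 to 47 counts per library, and the next lowest was Grk2 at -0.056. Atxn1 was listed by name, and these data do not show that it acts in the pathway. Of 23 tested targets that hedgehog signalling activates 0 passed and 15 had a negative log2 fold change (median -0.10). Over all genes tested 7753 of 15471 had a negative one, and the targets were not tested as a set. Nkx2-9, which encodes a ventral neural homeodomain protein, averaged 3.88 ± 0.386 CPM in WT against 1.08 ± 0.731 CPM in Sd (SD, n = 3). Its log2 fold change was -1.86 (SE 0.47), with adjusted p = 1.00 by edgeR and 0.0160 by DESeq2.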

How the data were processed

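Raw counts per gene were deposited by the authors, 1 file per library, for 3 WT and 3 Sd/Sd tailbud libraries. The submitters' processing notes name STAR 2.5.2b, bcl2fastq 2.17.1.14, DESeq2, SAMtools, CASAVA and the build mm9, without their roles; the counting program and the annotation were not given in the sources used here. Library preparation was stranded, per the labels' protocols, but whether counting used strand is unknown; in GENCODE M21 Gas1, Hhip and Cdon each overlap a noncoding model on the opposite strand. Symbols, chromosomes and exon lengths came from GENCODE M21 on GRCm38, and promoter windows from RefSeq; no coordinate was carried over to mm9, and 32620 identifiers had a symbol. All identifiers of chromosomes X and Y and the mitochondrion are listed at 0.

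Genes were kept by filterByExpr (minimum count 10, total 15), leaving 15471. Sd was compared with WT by edgeR 4.0.16 in R 4.3.3 (TMM, robust dispersions, quasi-likelihood test, 2-sided), with Benjamini-Hochberg adjustment over all genes tested and a threshold of 0.05; the SE is the size of the log2 fold change over the square root of F. CPM was scaled by TMM, and log2 CPM used a prior count of 2. The fits were tested on simulated data with 200 changed genes and the same dispersion for every gene. Those data lacked differences among libraries like those seen in Sd, so the test does not show how the fits handle them. An exact permutation test of 3 against 3 cannot go below p = 0.1. The labels do not state separate litters within a group, and p-values then reflect only how these libraries vary, which may be technical. Members, lists and tests were chosen with earlier results of these data known. Named beside the members were the ligand and Gli genes, the genes past the threshold or with the 2 smallest p of each other pathway list, and the 3 most alike genes of each member; 1 gene that this rule names is not reported here. Each library counted as 1 replicate. Every within-group pair differed by more than counting noise, which does not tell biological from technical variation.

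Deviations from the group means of libraries with the same replicate number correlated at 0.194, 0.144 and 0.275 over all genes tested, each above 0.1. But Sd replicate 2 correlated more with WT replicate 1, at 0.182, than with WT replicate 2. These values do not settle whether the numbers pair the libraries, and the labels do not state a pairing. Alternatives were DESeq2 1.42.0, limma-voom (limma 3.58.1), RLE or total-count scaling, other filters, no robust option, a replicate block, a somite covariate and each library left out.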

Additional observations from a re-analysis of the deposited data

How the results depend on the processing

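None of the 6 receptor genes passed the threshold in any of the 15 alternative fits, and Ptch1 was negative in all of them. With the replicate block the log2 fold change was -0.36 for Ptch1 (SE 0.11, edgeR adjusted p = 0.845); it turned to -0.18 for Hhip and -0.025 for Cdon, and the block changed no call among the members or the named pathway genes. Hhip also turned with limma-voom (-0.21), total-count scaling (-0.0014) and the somite covariate (-0.12), and Cdon with limma-voom (-0.013). Leaving out 1 library gave -0.35 to 0.43 for Hhip, -0.018 to 0.082 for Smo, -0.18 to 0.42 for Boc, -0.28 to 0.28 for Cdon and -0.21 to 0.41 for Gas1. Among other genes, the same step gave ranges that crossed 0 for Dhh (-0.41 to 0.0039), Gli2 (-0.012 to 0.25), Scube3 (-0.035 to 0.17) and Scube2 (-0.39 to 1.07). Over all genes tested, 6 were higher and 3 lower; DESeq2 gave 19 and 15, limma-voom 3 and 0, no robust option 3 and 0, no filter 9 and 5, and the somite covariate 8 and 8, and leaving out 1 library 2 to 5 and 0 to 1. Of the pathway genes, 2 were lower, 3 with DESeq2, 0 with limma-voom, 0 without the robust option and 0 whichever library was left out. The longest transcript moved the WT level of Ptch1 from 17.7 to 24.2 CPM per kilobase and that of Smo from 56.6 to 84.3. Depth was thinnest for Hhip, with 45 counts in its lowest library.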
